A study of Mus musculus with 4 samples.

Results

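The spots described here are those given cluster number 6 in the deposited spatial transcriptomics tables of 4 sagittal mouse brain sections. They were 974 of 14809 spots, chosen by that number alone, and upper-layer cortical neurons made up the largest part of their estimated content. A spot is a small area of tissue that can hold several cells, and its values are the fractions of the spot that the authors ascribed to 67 cell types and to unknown. All mice were wild-type C57. Chronic social defeat stress, in which a mouse is repeatedly defeated by an aggressor, was followed by a social interaction test that separated susceptible from resilient mice. The ketamine-treated susceptible section came from a susceptible mouse given ketamine intraperitoneally at 10 mg/kg, with brain tissue taken 7 days later. The susceptible, resilient and control sections came from mice given saline, and the labels used here do not say how the control mouse was housed or handled. Each group had 1 section, so no value below has a replicate error, every difference is between 2 sections, and no test across mice was possible.

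Neurons of layers 2 and 3 of the cortex are mostly intratelencephalic (IT in the type names): they send axons to other parts of the cortex on both sides of the brain and to the striatum, and not to the brainstem or spinal cord. Layer 5 also holds pyramidal-tract neurons (PT), which project below the cortex, and layer 6 holds corticothalamic neurons (CT), which project to the thalamus. Astrocytes, which take up transmitter and support synapses, fill all layers and are a main cell of layer 1, where few neuron bodies lie.

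Cluster 6 took 209 of 3477 ketamine-treated spots, 213 of 3443 susceptible spots, 265 of 4156 resilient spots and 287 of 3733 control spots. Its part of the section was 6.01% in the ketamine-treated section (95% exact Clopper-Pearson interval 5.24 to 6.85), 6.19% in the susceptible section (5.40 to 7.04), 6.38% in the resilient section (5.65 to 7.16) and 7.69% in the control section (6.85 to 8.59). The control part was thus the highest, and its interval overlapped those of the susceptible and resilient sections. Here and below such intervals cover counting error only, since neighbouring spots are not independent.

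Of the 67 types, 12 had a mean share of at least 1% over the cluster 6 spots of some section, 44 stayed below 1% in all sections, and 11 were in none of the 974 spots. The 44 sparse types reached at most 0.856%. A type in 0 of 974 spots could still lie in up to 0.308% of such spots by a limit of 3 spots, and shares too small to be kept in the deposited tables are not covered. The smallest fraction above 0 in cluster 6 was 12.6% of a spot.

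The marker types of the upper cortical layer label are given here as a description. They were chosen with earlier results of these data known, so their shares are no independent check of the label. L2_3_IT_CTX, the layer 2/3 IT neurons of the cortex, stood out most: cluster 6 held 75.0% of all its summed share in the ketamine-treated section, 78.4% in the susceptible, 82.3% in the resilient and 82.0% in the control section. It averaged 26.2% inside against 0.557% outside cluster 6 in the ketamine-treated section, 28.1% against 0.512% in the susceptible, 19.0% against 0.278% in the resilient and 20.9% against 0.381% in the control section. L2_IT_RSP_ACA, layer 2 IT neurons of the retrosplenial and cingulate areas, was less concentrated. Cluster 6 held 30.7% of its summed share in the ketamine-treated section, 37.0% in the susceptible, 48.3% in the resilient and 44.1% in the control section. Cluster 2 held 31.3% in the ketamine-treated, 44.0% in the susceptible and 25.0% in the control section, more than cluster 6 in the ketamine-treated and susceptible sections. In all 4 sections both types had their highest mean in cluster 6 among the clusters with at least 20 spots. Astro, the astrocyte type, is the remaining marker of the label and did not set cluster 6 apart: its mean inside was 0.717 times that of the other spots in the ketamine-treated, 0.840 times in the susceptible, 1.12 times in the resilient and 1.15 times in the control section.

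Clusters 9 and 2, which also held many neurons of the cortical layers, held more deep-layer neurons and less of both upper-layer marker types than cluster 6. L5_PT_RSP_ACA, layer 5 pyramidal-tract neurons, averaged between 0.785% and 1.33% in cluster 6, between 10.8% and 16.4% in cluster 9, and between 16.1% and 21.6% in cluster 2. L6_CT_CTX, the layer 6 corticothalamic neurons, was in none of the 974 cluster 6 spots, although its mean outside cluster 6 lay between 3.18% and 4.0%. In cluster 2 it reached 16.6% in the ketamine-treated, 12.6% in the susceptible, 17.9% in the resilient and 15.1% in the control section. L2_3_IT_CTX ran the other way, between 19.0% and 28.1% in cluster 6, between 2.59% and 4.80% in cluster 9, and at most 0.312% in cluster 2. L2_IT_RSP_ACA was between 16.0% and 29.6% in cluster 6, between 7.87% and 16.4% in cluster 9, and between 2.04% and 9.54% in cluster 2. With 1 section per group these cluster differences are given as values, without a test, and the clusters were themselves made from these spots.

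**Figure D1:**
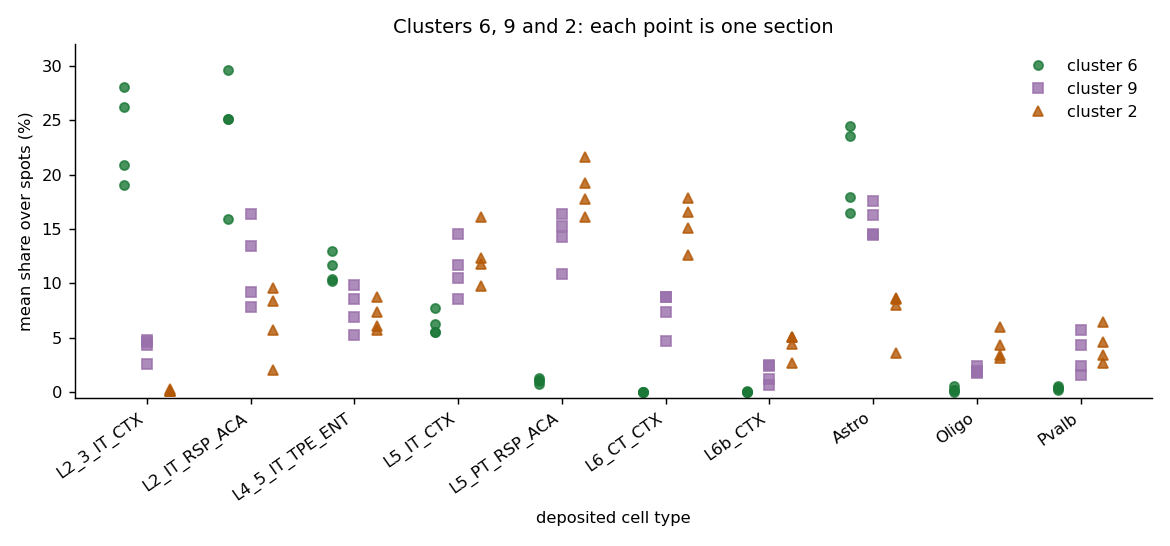
Mean share of 10 cell types (vertical axis, percent) over the spots of clusters 6, 9 and 2, with 1 point for each of the 4 sections. L2_3_IT_CTX is high only in cluster 6 among these 3 clusters, L6_CT_CTX is at 0 there, and cluster 9 lies between clusters 6 and 2 for most layer types.

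Upper-layer types together (15 types whose names start with L2 or L3) made up 57.9% of the cluster 6 content in the ketamine-treated section, 57.0% in the susceptible, 42.3% in the resilient and 49.9% in the control section. They were carried, meaning above 0, by 89.5% of ketamine-treated spots (84.5 to 93.3), 82.6% of susceptible spots (76.9 to 87.5), 69.4% of resilient spots (63.5 to 74.9) and 81.2% of control spots (76.2 to 85.5). The resilient interval lay below the other 3. Of the 15 types, 13 were in at least 1 spot, and L2_IT_RSP_ACA and L2_3_IT_CTX gave most of the share. Those types summed to 55.8% of the content in the ketamine-treated, 53.2% in the susceptible, 34.97% in the resilient and 46.0% in the control section. Other upper-layer types added most in the resilient section.

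L2_IT_RSP_ACA had a mean share of 29.6% in the ketamine-treated, 25.1% in the susceptible, 16.0% in the resilient and 25.1% in the control section. It was carried by 58.9% of ketamine-treated spots (51.9 to 65.6), 40.8% of susceptible spots (34.2 to 47.8), 37.4% of resilient spots (31.5 to 43.5) and 54.4% of control spots (48.4 to 60.2). The susceptible and control sections thus had the same mean but not the same spread over spots, and their carrying intervals did not overlap. Fewer cells of a type and less RNA per cell cannot be told apart in such fractions. In the spots that carried it, its median share was 44.1% in the ketamine-treated, 60.1% in the susceptible, 40.1% in the resilient and 38.9% in the control section. It filled the whole spot in 14 ketamine-treated, 20 susceptible, 4 resilient and 10 control spots. The median among carriers was thus highest in the susceptible section, while the resilient section, with a like part of carriers, had a median near those of the ketamine-treated and control sections.

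L2_3_IT_CTX averaged 26.2% in the ketamine-treated, 28.1% in the susceptible, 19.0% in the resilient and 20.9% in the control section. The part of spots carrying it ranged only from 41.5% in the resilient section (35.5 to 47.7) to 49.8% in the ketamine-treated section (42.8 to 56.7), with all 4 intervals overlapping. It led, with the highest fraction in the spot, 35.9% of ketamine-treated spots (29.4 to 42.8), 37.1% of susceptible spots (30.6 to 44.0), 24.9% of resilient spots (19.8 to 30.6) and 28.6% of control spots (23.4 to 34.2). The susceptible and resilient intervals touched at their ends, and the others overlapped.

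**Figure D2:**
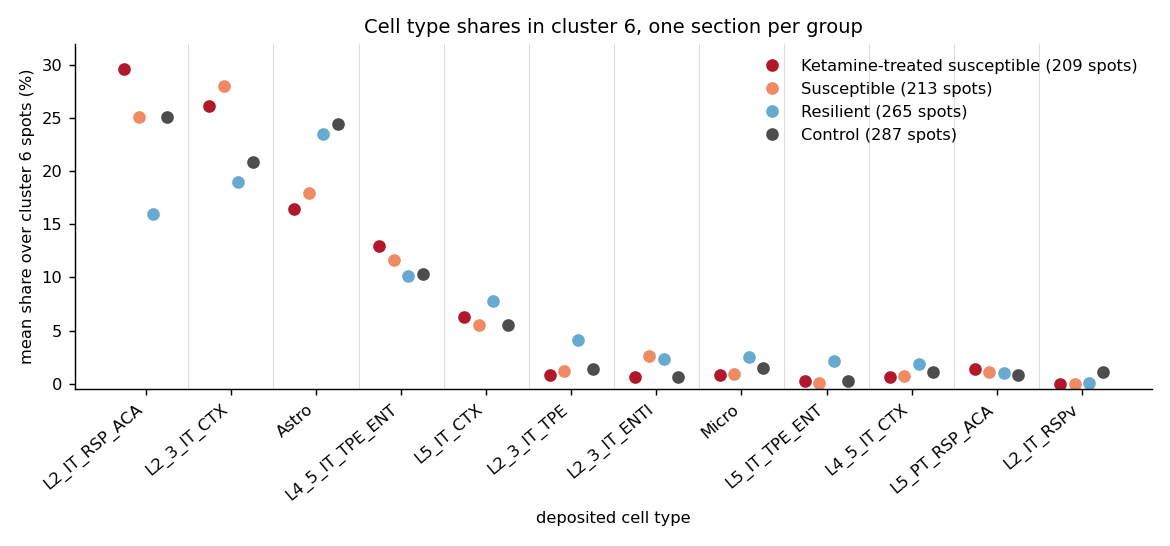
Mean share over cluster 6 spots (vertical axis, percent) of the 12 cell types that reached 1% in some section, with 1 point per section. L2_IT_RSP_ACA is lowest in the resilient section at 16.0%, and Astro is lower in the ketamine-treated and susceptible sections (16.5% and 18.0%) than in the resilient and control sections (23.5% and 24.4%).

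The 2 main types shared a minority of spots. Both were present in 42 ketamine-treated, 20 susceptible, 46 resilient and 63 control spots. That was 20.1% of ketamine-treated spots (14.9 to 26.2), 9.39% of susceptible spots (5.83 to 14.1), 17.4% of resilient spots (13.0 to 22.5) and 22.0% of control spots (17.3 to 27.2), so the susceptible interval lay below those of the ketamine-treated and control sections. Were the types spread independently over spots, their numbers of carriers would give 61.2 shared spots in the ketamine-treated, 42.9 in the susceptible, 41.1 in the resilient and 70.1 in the control section. The observed count was under that in the ketamine-treated, susceptible and control sections and above it in the resilient section. Spearman's rho between their shares across spots was -0.52 in the ketamine-treated section (209 spots), -0.53 in the susceptible (213 spots), -0.03 in the resilient (265 spots) and -0.23 in the control section (287 spots). These are descriptions: fractions of a spot sum to 1, which pushes such correlations below 0 and also limits the number of shared spots.

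Spots with neither type were 11.5% of ketamine-treated spots (7.50 to 16.6), 19.2% of susceptible spots (14.2 to 25.2), 38.5% of resilient spots (32.6 to 44.6) and 22.6% of control spots (17.9 to 27.9). The resilient part was the highest, with an interval above the other 3. Astro was the main content of these spots, at 51.1% in the ketamine-treated, 46.4% in the susceptible, 43.3% in the resilient and 53.9% in the control section. Types of layers 4 and 5 made up most of the rest, from 34.4% of ketamine-treated to 25.3% of control content. Astro was lowest where both layer types were present, from 2.01% of ketamine-treated to 6.0% of control content.

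**Figure D3:**
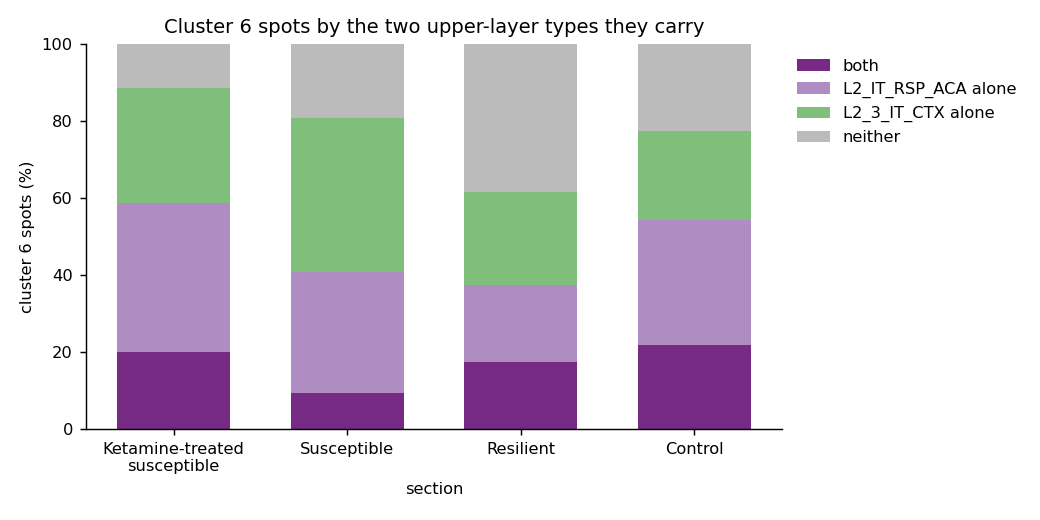
Part of the cluster 6 spots of each section (vertical axis, percent, summing to 100) that carried both L2_IT_RSP_ACA and L2_3_IT_CTX, only the first, only the other, or neither. The resilient section has the largest part with neither, 38.5%, and the susceptible section the smallest part with both, 9.39%.

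L4_5_IT_TPE_ENT, IT neurons of layers 4 and 5 named for temporal, perirhinal, ectorhinal and entorhinal areas, was the next neuron type. It averaged 13.0% in the ketamine-treated, 11.7% in the susceptible, 10.2% in the resilient and 10.4% in the control section. All 4 intervals of the part of spots carrying it overlapped, from 33.6% in the resilient section (27.9 to 39.6) to 45.0% in the ketamine-treated section (38.1 to 52.0). It was widely carried but led only 3.14% of control to 5.66% of resilient spots, with medians among carriers of 25.0% to 29.4% of the spot. It went with L2_3_IT_CTX in 49.0% of the ketamine-treated, 41.0% of the susceptible, 35.5% of the resilient and 41.9% of the control carriers of that type.

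L5_IT_CTX, the layer 5 IT neurons, averaged 6.29% in the ketamine-treated, 5.52% in the susceptible, 7.78% in the resilient and 5.55% in the control section, again with overlapping carrying intervals. It was found with L2_3_IT_CTX in only 6 ketamine-treated, 9 susceptible, 13 resilient and 11 control spots. Independence would give 21.9 such spots in the ketamine-treated, 17.7 in the susceptible, 25.7 in the resilient and 21.6 in the control section. With L2_IT_RSP_ACA it shared 34 ketamine-treated, 17 susceptible, 31 resilient and 22 control spots, against independent counts of 25.9 for the ketamine-treated, 14.7 for the susceptible, 23.2 for the resilient and 26.1 for the control section. The pairing with L2_3_IT_CTX was thus below its independent count in every section, and the pairing with L2_IT_RSP_ACA was above it in all but the control. Fractions sum to 1 and none kept was under 12.6% of a spot, so types limit each other's presence. Independent counts are therefore no neutral baseline, and these pairings are descriptions.

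The remaining neuron types at 1% or more rested on few spots. L2_3_IT_TPE, layer 2/3 IT neurons of the temporal, perirhinal and ectorhinal areas, was in 5 ketamine-treated, 6 susceptible, 34 resilient and 12 control spots. Its resilient part, 12.8% (9.05 to 17.5), had an interval above those of the ketamine-treated (0.781 to 5.49), susceptible (1.04 to 6.03) and control sections (2.18 to 7.19). L5_IT_TPE_ENT, the layer 5 counterpart, was in 2 ketamine-treated, 1 susceptible, 18 resilient and 3 control spots, and its resilient interval of 4.08 to 10.5% likewise lay above the other 3. L2_3_IT_ENTl, layer 2/3 neurons of the lateral entorhinal cortex, was in 5 ketamine-treated, 15 susceptible, 14 resilient and 7 control spots with overlapping intervals. L4_5_IT_CTX was in 5, 3, 14 and 8 spots of the ketamine-treated, susceptible, resilient and control sections, and L5_PT_RSP_ACA in 13, 9, 12 and 11. L2_IT_RSPv, named for the ventral retrosplenial area, was in 0 ketamine-treated, 0 susceptible, 1 resilient and 8 control spots.

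Astrocytes were lower in the ketamine-treated and susceptible sections, where glutamatergic neurons as a whole were higher. Glutamatergic types averaged 80.2% in the ketamine-treated, 77.4% in the susceptible, 68.4% in the resilient and 69.7% in the control section. Astro averaged 16.5% in the ketamine-treated, 18.0% in the susceptible, 23.5% in the resilient and 24.4% in the control section. It led 14.4% of ketamine-treated spots (9.90 to 19.9), 17.4% of susceptible spots (12.5 to 23.1), 28.7% of resilient spots (23.3 to 34.5) and 29.3% of control spots (24.1 to 34.9). The intervals of the ketamine-treated and susceptible sections lay below those of the resilient and control sections. Spots carrying any Astro were 43.1% of ketamine-treated spots (36.3 to 50.1), 39.0% of susceptible spots (32.4 to 45.9), 48.3% of resilient spots (42.1 to 54.5) and 53.0% of control spots (47.0 to 58.9), where only the susceptible and control intervals stood apart. Over whole sections Astro was between 21.1% in the resilient and 22.6% in the ketamine-treated section, so the section means did not follow the cluster 6 order. The difference between the cluster 6 and whole-section patterns was not tested.

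**Figure D4:**
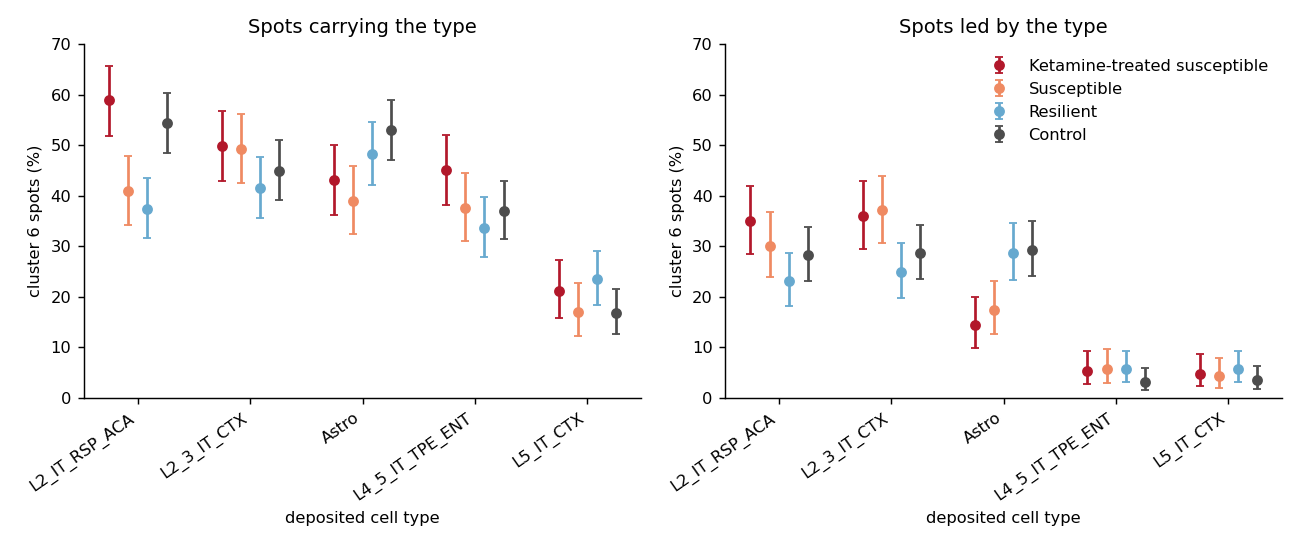
Percent of cluster 6 spots (vertical axis) that carried each of 5 types at any level, in the left panel, or in which the type had the highest fraction, in the right panel, by section with 95% exact Clopper-Pearson intervals. Astro led 14.4% and 17.4% of the ketamine-treated and susceptible spots against 28.7% and 29.3% of the resilient and control spots.

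Other non-neuronal cells were sparse. Microglia and macrophages (Micro, immune cells that live in the brain, and PVM, perivascular macrophages) were in 8 ketamine-treated, 7 susceptible, 22 resilient and 16 control spots. The 4 vascular types were in 5 ketamine-treated, 4 susceptible, 18 resilient and 16 control spots, and VLMC, the fibroblast-like cells of the meninges and vessels, in 0 ketamine-treated, 0 susceptible, 5 resilient and 4 control spots. All non-neuronal types together averaged 18.7% in the ketamine-treated, 20.0% in the susceptible, 29.1% in the resilient and 28.3% in the control section, and they led 15.8% of ketamine-treated (11.1 to 21.5), 17.8% of susceptible (12.9 to 23.7), 31.3% of resilient (25.8 to 37.3) and 30.3% of control spots (25.0 to 36.0). Since shares are relative, a higher astrocyte share lowers the neurons and the reverse.

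The study's title concerns myelin, and cluster 6 held almost none of the cells that make it. Oligo, the oligodendrocytes, was in 2 ketamine-treated, 1 susceptible, 0 resilient and 6 control spots, against means of 13.5% to 24.1% outside cluster 6, and it led none of the 974 spots. The 0 resilient spots allow a part of up to 1.13%. OPC, the oligodendrocyte precursors, was in 1 ketamine-treated, 1 susceptible, 7 resilient and 1 control spot, with intervals that all overlapped. Unlike Oligo, it was about as frequent inside as outside, at 1.03% of cluster 6 spots and 1.00% of the other spots. The differences in Oligo outside cluster 6 therefore had no counterpart that could be measured within these spots.

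GABAergic neurons were also rare in the kept shares. GABAergic types averaged 1.06% in the ketamine-treated, 1.72% in the susceptible, 2.46% in the resilient and 2.06% in the control section, against 8.85% to 12.1% in the other spots. Of the 11 GABAergic types, 8 were in any spot. Pvalb, the fast-spiking parvalbumin type, was in 13 of the 974 spots, 1.33% inside cluster 6 against 9.63% outside, and Sst_Chodl, the long-range somatostatin type, in none inside against 5.80% outside. Some sparse types were more frequent inside: Sncg was in 17 spots (1.75% inside against 0.817% outside), Lamp5, a type common in the outer layers, in 11 (1.13% against 0.195%), Pax6 in 6 (0.616% against 0.152%) and Vip in 3 (0.308% against 0.195%). The remaining types were less frequent inside: Meis2 (0.103% against 3.75%), Ndnf_HPF (0% against 2.89%), Sst (0% against 0.679%), Lamp5_Lhx6 (0.205% against 0.383%) and Pvalb_Vipr2 (0.821% against 1.01%).

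For the comparisons, types that reached a mean share of 1% in one or the other section were counted, and a difference of at least 1.5-fold was called in place of a test. A type that reached 1% in only 1 of the sections was counted through the section where it was higher. This filter favours calls of such types, which are therefore no support for a difference between groups. The same count over all spots of the sections is the background. It rests on more spots per section (3443 to 4156 against 209 to 287) and on more types, so its counting error is smaller. A higher percentage in cluster 6 is therefore not by itself an excess, and the part of counting error in it was not tested. Ketamine-treated against susceptible spots of cluster 6 asks what differed with the drug between mice labelled susceptible. Here 1 of 8 types was called (12.5%), against 14.3% of types over the whole sections. That type was L2_3_IT_ENTl, at 0.629% in ketamine-treated spots and 2.62% in susceptible spots, a ratio of 0.240 that rests on 5 and 15 spots with overlapping intervals. It passed the 1% minimum through the susceptible section alone, and over the whole sections its ratio was 0.844. L2_IT_RSP_ACA was 1.18 times the susceptible share, without passing the fold, but its carrying interval was higher and did not overlap. L2_3_IT_CTX and Astro had ratios of 0.933 and 0.916, both of which turned to the other side of 1 when spots carrying the type were counted (1.01 and 1.11).

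Ketamine-treated against control spots had 5 of 10 types called (50%), against 27.3% over the whole sections. All 5 were types under 2%, and each reached 1% only in the section where it was higher. L5_PT_RSP_ACA was higher at 1.33% against 0.785%. Micro was lower at 0.766% against 1.45%, L4_5_IT_CTX at 0.646% against 1.14% and L2_3_IT_TPE at 0.830% against 1.35%. L2_IT_RSPv was listed at 0 in the ketamine-treated spots against 1.10% in the control spots. None of these had carrying intervals that stood apart, and 0 types were called with a minimum of 2%. Over the whole sections L2_IT_RSPv and Micro had the opposite direction, at 1.14 and 1.15 times the control. The other called types kept theirs, at 0.931 for L2_3_IT_TPE, 0.683 for L4_5_IT_CTX and 1.41 for L5_PT_RSP_ACA. Of the main types, L2_3_IT_CTX and L4_5_IT_TPE_ENT were both 1.25 times the control share, and Astro was 0.674 times, just short of the fold.

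Susceptible against control spots had 4 of 11 types called (36.4%), against 33.3% over the whole sections. All 4 reached 1% only in the section where they were higher. L2_3_IT_ENTl was higher at 2.62% against 0.662% (3.96-fold), with overlapping carrying intervals. Micro was lower at 0.867% against 1.45%, L4_5_IT_CTX at 0.694% against 1.14%, and L2_IT_RSPv was listed at 0 against 1.10%. Over the whole sections L2_IT_RSPv had the opposite direction, at 1.11 times the control. The other called types kept theirs, at 1.14 for L2_3_IT_ENTl, 0.919 for Micro and 0.643 for L4_5_IT_CTX. L2_3_IT_CTX was 1.34 times and Astro 0.736 times the control share. L2_IT_RSP_ACA had a ratio of 1.00 by mean share and 0.751 by spots carrying it.

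Resilient against control spots had the most calls, 7 of 11 types (63.6%), against 39.1% over the whole sections. L2_IT_RSP_ACA was lower, at 16.0% against 25.1% (ratio 0.636), and L2_IT_RSPv was at 0.0789% against 1.10%. L5_IT_TPE_ENT was higher at 2.10% against 0.219% (9.61-fold), L2_3_IT_ENTl at 2.36% against 0.662% (3.57-fold), L2_3_IT_TPE at 4.14% against 1.35% (3.07-fold), Micro at 2.47% against 1.45% (1.71-fold) and L4_5_IT_CTX at 1.88% against 1.14% (1.65-fold). Among the 7, L2_IT_RSPv, L5_IT_TPE_ENT and L2_3_IT_ENTl reached 1% only in the section where they were higher. Carrying intervals stood apart for L2_IT_RSP_ACA, L5_IT_TPE_ENT and L2_3_IT_TPE among the 7. By spots carrying it the L2_IT_RSP_ACA ratio was 0.687, and by spots led 0.816, both short of the fold. Over the whole sections L2_3_IT_ENTl had the opposite direction, at 0.287 times the control. The other 6 called types kept theirs, with whole-section ratios of 0.481 for L2_IT_RSP_ACA, 0.720 for L2_IT_RSPv, 1.38 for Micro, 1.61 for L4_5_IT_CTX, 2.28 for L2_3_IT_TPE and 5.96 for L5_IT_TPE_ENT.

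Susceptible against resilient spots, both from defeated mice, had 5 of 11 types called (45.5%), against 43.5% over the whole sections. Among the 5, L5_IT_TPE_ENT, Micro and L4_5_IT_CTX reached 1% only in the resilient section. L2_IT_RSP_ACA was higher at 25.1% against 16.0% (1.57-fold), but its ratio was 1.09 by spots carrying it, with overlapping intervals, and 1.31 by spots led. L5_IT_TPE_ENT was lower at 0.0694% against 2.10%, L2_3_IT_TPE at 1.15% against 4.14%, Micro at 0.867% against 2.47% and L4_5_IT_CTX at 0.694% against 1.88%. Carrying intervals stood apart for L5_IT_TPE_ENT, which was in 1 susceptible spot, and L2_3_IT_TPE. Those of Micro and L4_5_IT_CTX overlapped. All 5 called types had the same direction over the whole sections. The ratios there were 1.99 for L2_IT_RSP_ACA, 0.512 for L5_IT_TPE_ENT, 0.373 for L2_3_IT_TPE, 0.668 for Micro and 0.399 for L4_5_IT_CTX. L2_3_IT_CTX was 1.48 times the resilient share, just short of the fold. The comparisons share sections, so their calls are not independent of each other.

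The number of types kept per spot moved with some of these results. It averaged 2.49 in the ketamine-treated, 2.15 in the susceptible, 2.59 in the resilient and 2.53 in the control spots of cluster 6, and 51 susceptible spots (23.9%) held a single type, against 28 control spots (9.76%). Fewer kept types lower the part of spots that carry any type, and their part in the lower L2_IT_RSP_ACA and Astro carrying of the susceptible section was not tested.

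Where cluster 6 lay on the array also differed between sections. On such slides each barcode marks a position, and the same barcodes recur on every array: pairs of sections shared between 2735 and 3304 of them. Cluster 6 held the same barcode in both the ketamine-treated and susceptible sections 117 times, and in both the resilient and control sections 26 times. For each of the other 4 pairs of sections it held none in common. The 117 barcodes were 56.0% of the ketamine-treated and 54.9% of the susceptible cluster 6 spots. The 26 were 9.81% of the resilient and 9.06% of the control ones, but only 44 resilient cluster 6 barcodes were in the control section. Of those 44, 59.1% were in control cluster 6. Of 169 ketamine-treated ones in the susceptible section, 69.2% were in its cluster 6. The reverse parts were 9.09% of 286 control and 55.7% of 210 susceptible barcodes. Independent placement, which neighbouring spots do not have, would give 10.7 and 3.93 shared barcodes for these pairs. For the pairs with none it would give 8.12 to 20.9. At those 26 barcodes Astro averaged 5.93% in resilient and 36.7% in control spots, although over all of cluster 6 the means of these sections were close. Array placement and group cannot be told apart with 1 section per group.

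Within the ketamine-treated and susceptible sections, the 117 shared barcodes and the others differed in makeup. In both sections L2_3_IT_CTX was carried more at the shared barcodes: by 63.2% against 32.6% of ketamine-treated spots, and by 65.0% against 30.2% of susceptible spots. L2_IT_RSP_ACA was carried by 58.1% of ketamine-treated spots at the shared barcodes (48.6 to 67.2) and by 20.5% of susceptible spots there (13.6 to 29.0). The other barcodes of these sections have none in common by construction, so values there are not matched by array position. There L2_IT_RSP_ACA was carried by 59.8% of ketamine-treated spots (49.0 to 69.9) and 65.6% of susceptible spots (55.2 to 75.0). Matched by barcode, L2_IT_RSP_ACA was carried in both sections at 17 of the 117, in the ketamine-treated section only at 51, in the susceptible section only at 7 and in neither at 42. At the other barcodes the intervals overlapped. As positions there are not matched, this overlap cannot show that no difference exists at them. At the shared barcodes Astro averaged 12.0% in ketamine-treated spots and 22.9% in susceptible spots. At the others it averaged 22.2% in ketamine-treated spots and 11.9% in susceptible spots, so the direction was opposite. The same barcode need not be the same anatomical site, and sections can differ in plane and rotation.

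**Figure D5:**
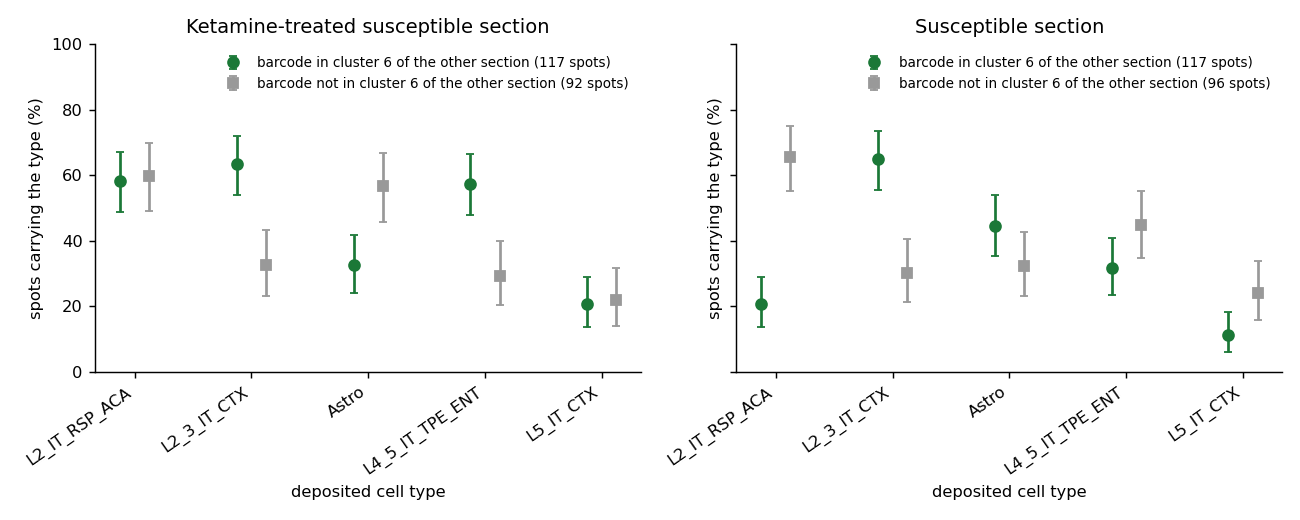
Percent of cluster 6 spots (vertical axis) carrying each of 5 types in the ketamine-treated section, in the left panel, and the susceptible section, in the right panel, split by whether the barcode was also in cluster 6 of the other of these sections, with 95% exact Clopper-Pearson intervals. L2_IT_RSP_ACA was carried by 20.5% of the susceptible spots at shared barcodes and by 65.6% at the others, against 58.1% and 59.8% in the ketamine-treated section.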

How the data were processed

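Each section has a deposited table with a cluster number and, per spot, the fraction the authors gave to each cell type. The submitters' processing notes name the build mm10; which aligner, clustering and deconvolution were run is not given in the sources used here. Depth is unknown, as gene counts were not analysed here. Spot positions were compared only through barcodes shared between sections, without array coordinates. Cluster numbers were taken as 1 clustering of all sections, which no source used here states. The members and lists were chosen with earlier results of these data known.

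Mean shares, spots carrying a type and spots led by it (ties led none) were computed in Python 3.11.15 with pandas 2.3.3 and scipy 1.17.1, with exact intervals at 95%. Types named were L2_IT_RSP_ACA, L2_3_IT_CTX, Astro, Oligo and OPC, those at 1% or more in cluster 6 of some section, and up to 10 per direction by ratio; other sparse types were named after their values were seen. The deposited t-SNE table marks sections by a barcode suffix, and each suffix held exactly the barcodes of 1 section.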

Additional observations from a re-analysis of the deposited data

How the results depend on the processing

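The counts of types differing 1.5-fold in cluster 6 were 1 for ketamine-treated against susceptible, 5 for ketamine-treated against control, 4 for susceptible against control, 5 for susceptible against resilient and 7 for resilient against control. Counting spots that carry a type made them 4 of 14 types, 9 of 22, 11 of 22, 14 of 23 and 14 of 26 in that order. A minimum mean share of 0.5% made them 3 of 12, 9 of 15, 7 of 16, 12 of 19 and 14 of 21. A minimum of 2% gave 0 of 5 for ketamine-treated against control and 1 of 6 for susceptible against control. These changes, and those that follow, alter how many types are compared, which was 8, 10, 11, 11 and 11 as reported. No whole-section share is given for them, so their counts are not set against a background. With astrocytes left out, the count was 8 of 12 for susceptible against control and 11 of 16 for susceptible against resilient. Clusters 2, 6 and 9 together gave 4 of 15 for ketamine-treated against susceptible, 2 of 15 for ketamine-treated against control and 8 of 17 for susceptible against resilient. Using only barcodes in cluster 6 of both sections was an alternative chosen after seeing the data. It gave 8 of 10 for ketamine-treated against susceptible on 117 barcodes. For resilient against control it gave 13 of 15 on 26 barcodes. Of the ratios of the 3 marker types, 7 turned direction. By spots carrying the type, L2_3_IT_CTX became 1.01 and Astro 1.11 for ketamine-treated against susceptible, and L2_IT_RSP_ACA 0.751 for susceptible against control. The last ratio was 0.973 with fractions under 20% set to 0 and 0.939 without astrocytes. With clusters 2, 6 and 9 together, L2_3_IT_CTX became 0.930 for ketamine-treated against control and Astro 1.16 for susceptible against resilient. The L2_IT_RSP_ACA calls were lost by spots carrying it and by spots led, at 0.687 and 0.816 for resilient against control and at 1.09 and 1.31 for susceptible against resilient. Astro instead passed the fold by spots led, at 0.490 for ketamine-treated against control, 0.594 for susceptible against control and 0.606 for susceptible against resilient, and with fractions under 20% set to 0 at 0.641 for ketamine-treated against control. The cause of these changes was not tested. With clusters under 20 spots in any section left out of the total, cluster 6 took 6.95% of ketamine-treated and 8.92% of control spots, since fewer spots are counted. No paired analysis was possible because each group had 1 section and the result comes from no test, and no replicate could be left out.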

Other observations

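In the deposited t-SNE map, 93.9% of the 20 nearest spots of a cluster 6 spot were also in cluster 6, and 93.2% of the nearest 50. That was not particular to cluster 6. Among the 20 nearest, the own-cluster part was 96.5% for cluster 2 and 93.1% for cluster 9. Across all clusters it ran from 79.3% in cluster 17 to 99.5% in cluster 16. Cluster 2 was the most frequent other neighbour of cluster 6 spots, at 3.4%. Sections mixed unevenly there: of the neighbours of susceptible cluster 6 spots, 55.8% came from the susceptible section, which held 21.9% of the cluster, and 5.73% from the resilient section, which held 27.2%. For resilient spots, 42.1% of neighbours were resilient, 36.7% control and 5.21% susceptible. For ketamine-treated spots, 34.9% of neighbours were ketamine-treated, 24.1% control, 22.8% susceptible and 18.2% resilient. The map has no unit and may come from the same data as the clusters.

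Cluster 6 spots fell into 69 different combinations of types in the ketamine-treated section, 69 in the susceptible, 145 in the resilient and 113 in the control section. The most frequent was L2_IT_RSP_ACA with Astro in the ketamine-treated (18 spots) and control sections (21 spots), L2_IT_RSP_ACA alone in the susceptible section (20 spots), and Astro alone in the resilient section (18 spots). Types in at least 1 spot numbered 29 in the ketamine-treated, 26 in the susceptible, 49 in the resilient and 45 in the control section. Sections with more cluster 6 spots can show more combinations, and this was not corrected for.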
